A study of Mus musculus with 8 samples.

Results

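The semaphorins, plexins, neuropilins, Eph receptors, ephrins, Slits and Robos are the main families of guidance cues and guidance receptors. Here they were taken as every gene present in all 8 count files whose mouse symbol is Sema, Plxna to Plxnd, Epha, Ephb, Efna, Efnb, Robo or Slit followed by a digit, or Nrp1 or Nrp2. The rule found 60 of the 30731 genes shared by all files by symbol alone. The study asked how the T cell factor TCF-1, the product of Tcf7, reorganises the folding of the genome, and the libraries described here are RNA-seq of 2 mouse cell lines with 2 libraries in each of 4 groups. NIH-3T3 is an embryonic fibroblast line. Its induced group is labelled Tcf7 induced in genotype and TCF1 induced in treatment, and its normal group is labelled wild type and untreated. The file headers place all 4 of these libraries at 72 hours, with Cas9 and the same vector names in each, and the word dox, the usual short form of doxycycline, in the induced libraries alone, so that an effect of doxycycline and an effect of TCF-1 cannot be told apart. Scid.adh is a thymic lymphoma line used as a model of DN3 thymocytes, early T cell precursors that lack both CD4 and CD8. Its knockout group is labelled Tcf7-/- and TCF1 KO, and its other group wild type with an empty vector. Separate cultures or clones within a group are not stated, so p-values reflect only how far these libraries scatter, which can be purely technical.

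Guidance cues tell a moving cell or axon where to go, mostly by pushing it away. Semaphorins are secreted (class 3) or membrane-bound (classes 4 to 7 in vertebrates) ligands of plexins, and most class 3 members need a neuropilin as co-receptor. Plexins carry a GTPase-activating domain for Ras-family proteins in their cytoplasmic part and act on the cytoskeleton and on integrins. Ephrins are anchored in the membrane of a cell and bind Eph receptor tyrosine kinases on its neighbour, A ephrins by a lipid anchor and B ephrins by a transmembrane segment. Slits are large secreted proteins that bind Robo receptors. Beyond the nervous system these families sort cells at tissue borders, shape blood vessels, control the adhesion and contraction of fibroblasts, and steer thymocytes between the zones of the thymus.

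Total counts over genes ranged from 13850213 to 17523677 in the 3T3 libraries and from 7740198 to 10392402 in those of Scid.adh. Tcf7 stood at 946 and 972 CPM (counts scaled to a common library size, with TMM factors) in induced 3T3 cells and at 14.5 and 14.6 CPM in normal cells. Its level in Scid.adh was 646 and 624 CPM in the knockout and 1318 and 1325 CPM with the empty vector, so Tcf7 transcripts remained in both knockout libraries. Markers fitted the labelled lines: 8 fibroblast markers summed to 22417 and 22357 CPM in induced and 24608 and 24025 CPM in normal 3T3, where 8 T-lineage markers summed to 7.70 to 8.43 CPM over the 4 libraries. The T-lineage markers summed to 3678 and 3744 CPM in knockout and 4419 and 4364 CPM in empty-vector Scid.adh, where the fibroblast list (375 to 716 CPM) was led by Thy1, which T cells also make. Within that list Pdgfrb, at 4.38 and 3.80 CPM in knockout and 119.7 and 125 CPM in empty-vector cells, fell, and the low Col1a1, Col1a2 and Pdgfra rose.

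Promoter sequence was at hand for 53 of the 60 genes, as RefSeq windows of 300 bases on GRCm38.p6, from 250 before to 50 after a transcript start. They were searched on both strands for CTTTGA, whose reverse complement reads TCAAAG and which is the core of the site that TCF/LEF factors bind. A match on either strand was counted once per gene. It occurred in 5 of the 53 genes (9.43%), against 18.2% of the 27025 genes in the promoter table. These were Epha2, Nrp2, Robo4, Sema3e and Sema6d. Among members called in 3T3 it occurred in 1 of 10 that rose (Epha2) and in 0 of 9 that fell. A match of 6 letters is a description and not a binding site, and its absence from this short window says nothing of sites elsewhere. Plxna4 is among the genes without a window, so these counts do not cover it. The stretches below are a selection, in which Plxna2 and Slit3 are not shown. They are those of Sema5a and Efnb2 (fell in 3T3), Plxnb1 (rose in 3T3), Plxnd1 (fell in Scid.adh), and Epha2 and Nrp2 (hold the match, printed in capitals). Each runs 5′ to 3′ on the gene's strand and stops at the transcript start or at the first base that GENCODE M21 annotates as exon. Their positions are chr15:32244563-32244809 (plus strand), chr8:8661243-8661492 (minus), chr9:109095186-109095388 (plus), chr4:141300971-141301220 (plus), chr1:62703067-62703284 (plus) and chr6:115995006-115995255 (minus).
Sema5a: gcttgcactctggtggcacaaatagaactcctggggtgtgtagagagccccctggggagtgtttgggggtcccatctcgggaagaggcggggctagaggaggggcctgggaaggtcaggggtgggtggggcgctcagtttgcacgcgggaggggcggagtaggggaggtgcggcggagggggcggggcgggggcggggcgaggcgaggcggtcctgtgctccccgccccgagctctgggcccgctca
Efnb2: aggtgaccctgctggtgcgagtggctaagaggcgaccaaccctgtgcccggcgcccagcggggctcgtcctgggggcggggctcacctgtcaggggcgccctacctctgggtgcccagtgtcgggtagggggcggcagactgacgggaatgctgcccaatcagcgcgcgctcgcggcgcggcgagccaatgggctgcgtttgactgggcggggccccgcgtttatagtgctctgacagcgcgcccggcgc
Plxnb1: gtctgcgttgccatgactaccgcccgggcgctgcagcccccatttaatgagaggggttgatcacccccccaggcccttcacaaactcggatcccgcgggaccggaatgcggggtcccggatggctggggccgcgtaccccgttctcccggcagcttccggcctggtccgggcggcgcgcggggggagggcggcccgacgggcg
Epha2: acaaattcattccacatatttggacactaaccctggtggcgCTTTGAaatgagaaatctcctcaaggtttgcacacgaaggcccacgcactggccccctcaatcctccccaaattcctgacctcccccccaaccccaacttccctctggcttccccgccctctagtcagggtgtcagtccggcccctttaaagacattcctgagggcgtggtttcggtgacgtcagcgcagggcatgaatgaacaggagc
Nrp2: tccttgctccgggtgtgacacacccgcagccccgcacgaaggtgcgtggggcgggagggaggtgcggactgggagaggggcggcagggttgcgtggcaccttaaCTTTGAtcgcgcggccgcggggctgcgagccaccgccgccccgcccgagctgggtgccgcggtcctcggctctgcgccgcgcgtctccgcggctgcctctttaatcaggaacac
Plxnd1: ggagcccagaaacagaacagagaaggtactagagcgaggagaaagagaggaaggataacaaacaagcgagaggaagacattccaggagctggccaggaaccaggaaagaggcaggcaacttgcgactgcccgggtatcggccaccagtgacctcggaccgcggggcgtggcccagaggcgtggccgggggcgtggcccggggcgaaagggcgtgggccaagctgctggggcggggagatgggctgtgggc
The first letter of the match lies at -209 from the RefSeq start in Epha2 and at -146 in Nrp2. The Epha2 stretch holds 9 CG dinucleotides in 250 bases, while that of Efnb2 holds 27 and that of Plxnd1 16 in the same length.

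The most abundant guidance genes differed between the lines by levels per length (RPKM, CPM per kilobase of the union of GENCODE M21 exons, mean of 2 libraries). In 3T3 the most abundant were Slit3 (105 RPKM in induced and 53.3 in normal cells), Plxna1 (74.4 and 51.6), Plxnb2 (68.7 and 57.3), Nrp2 (49.6 and 52.2) and Ephb4 (27.0 and 25.6). In Scid.adh they were Ephb4 (20.8 RPKM in knockout and 21.8 in empty-vector cells), Sema4d (18.6 and 20.2), Efna4 (18.5 and 17.4), Sema7a (12.1 and 13.8) and Nrp1 (11.6 and 14.9). Nrp2, among the 4 highest in 3T3, had 5 to 13 counts per library in Scid.adh, and Sema4d, near the top in Scid.adh, stood at 0.311 RPKM in induced and 0.270 RPKM in normal 3T3. Robo receptors were low everywhere: their summed level was 0.0785 to 0.192 RPKM over the 3T3 libraries and 0.0930 to 0.309 RPKM over those of Scid.adh. Levels were set side by side and not tested between lines, since the 3T3 and Scid.adh tables list different sets of genes.

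**Figure D1:**
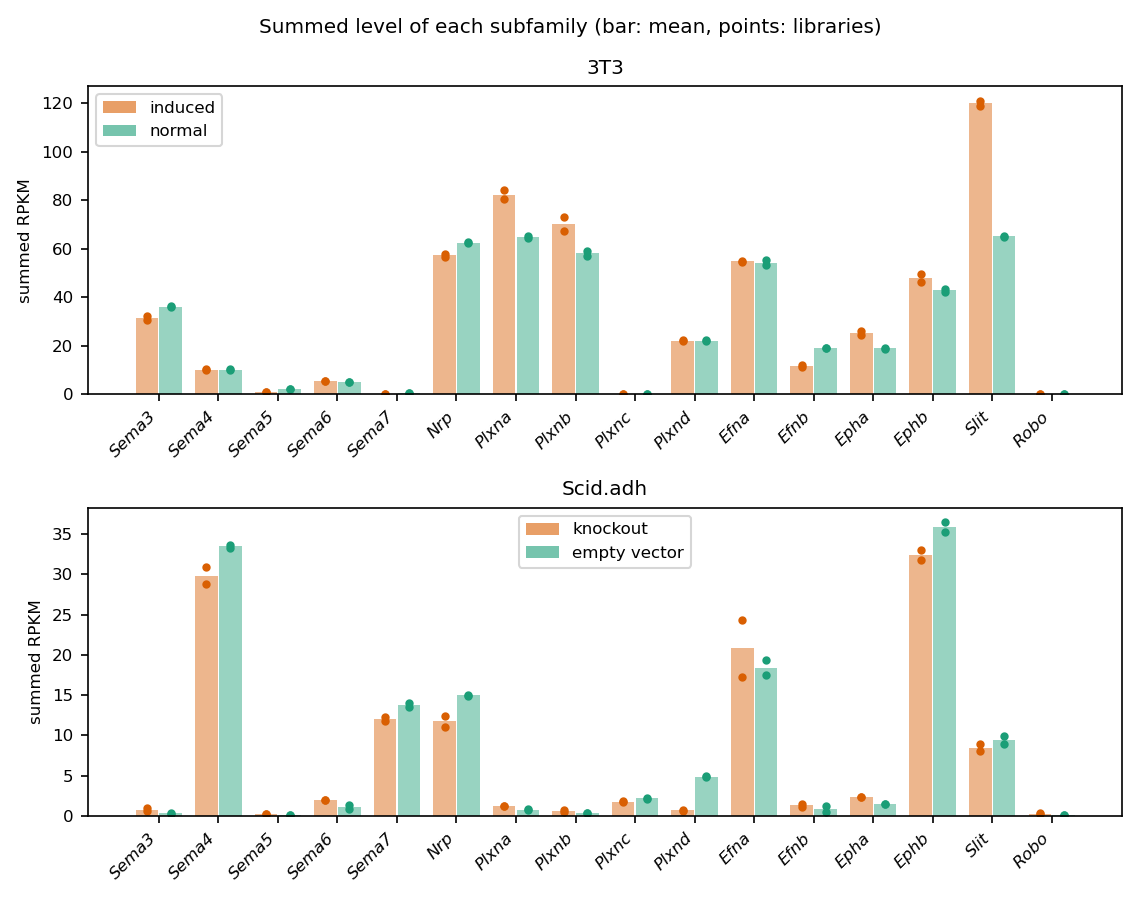
Summed RPKM (vertical axis, linear from 0) of each guidance subfamily (horizontal axis) in 3T3 (top; induced left of normal) and Scid.adh (bottom; knockout left of empty vector). Bars are means and points the 2 libraries of a group. The Slit total stood at 121 and 119 RPKM in induced against 65.0 and 65.1 RPKM in normal 3T3, and the Plxnd total, which is Plxnd1 alone, at 0.616 and 0.731 in knockout against 4.93 and 4.78 in empty-vector Scid.adh.

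The comparison of induced with normal 3T3 asks what TCF-1 does to transcripts of a cell type outside the blood lineages. In 3T3, 50 of the 60 genes had enough counts to be tested. Among them 12 rose (24.0%, against 18.5% of all 18185 tested genes) and 10 fell (20.0%, against 18.3%), at an adjusted p under 0.05 in edgeR's quasi-likelihood test. At this threshold the shares are near the background, so the number of calls there sets the families apart in neither direction. Every call came from the 35 tested members averaging 5 CPM or more. Of these 34.3% rose and 28.6% fell, against 25.0% and 23.7% of all tested genes at that level. In a test against a change of 1.5-fold, 2 members rose (4.0%, against 2.64% of all genes) and 6 fell (12%, against 2.4%). DESeq2 called 9 rises (18.0%, against 10.9% of all genes) and 8 falls (16.0%, against 11.2%). In the test against 1.5-fold, those that fell were Plxna4, Sema5a, Plxna2, Sema3a, Efnb2 and Sema4g, and those that rose were Plxnb1 and Slit3. The median log2 fold change of the 50 was -0.02, against 0.00 over all tested genes, and the median size was 0.31 against 0.22. Members differed among themselves within nearly every family, so they are given by role. Less RNA per cell and fewer cells that make it cannot be told apart in these bulk libraries.

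**Figure D2:**
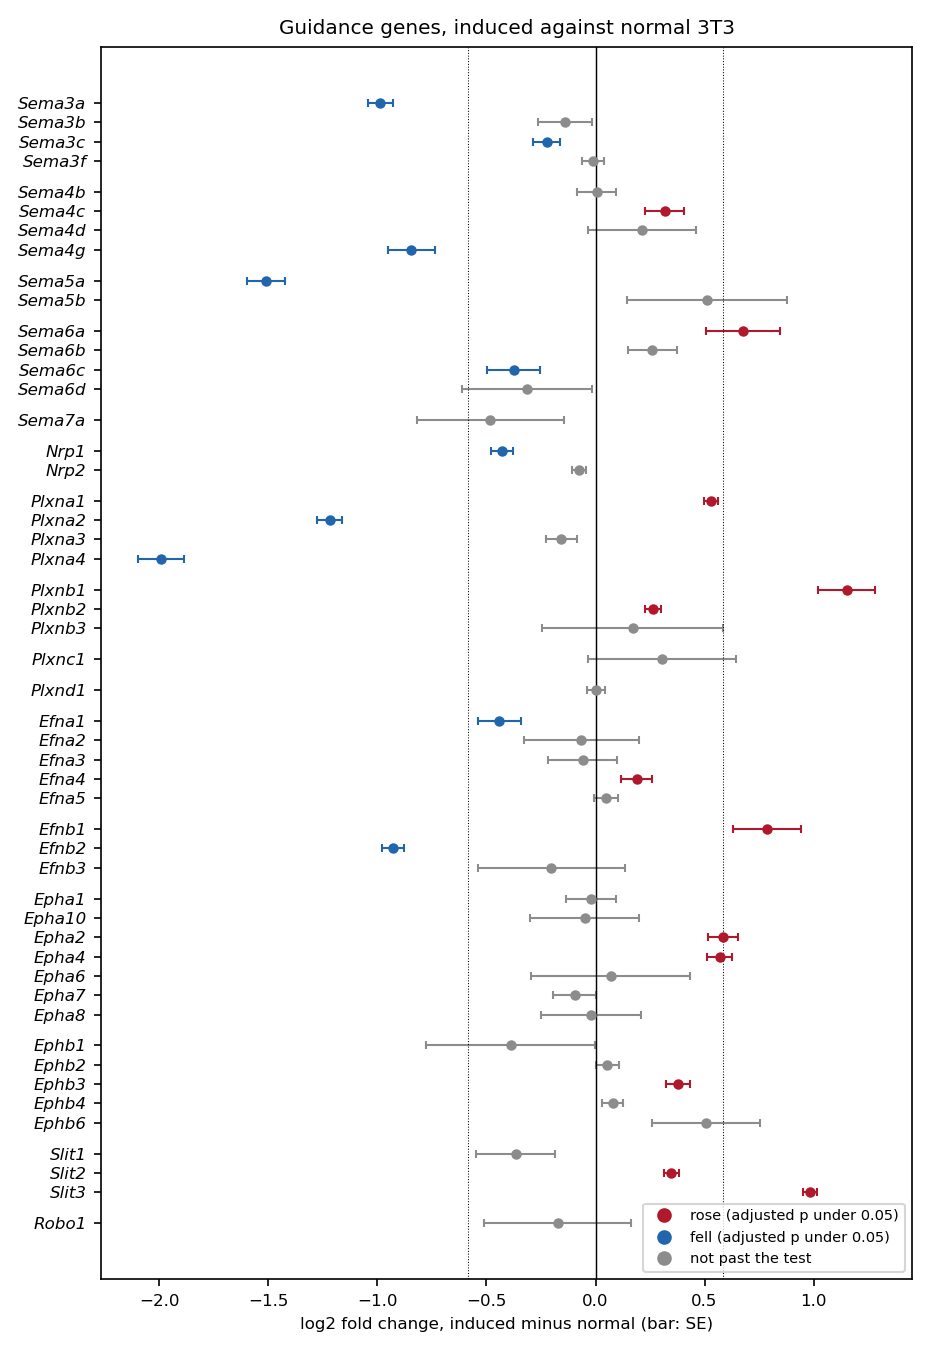
Log2 fold change (horizontal axis, induced minus normal 3T3; bars are SE from the fit of 2 libraries a group) of the 50 tested members, ordered by family. Red marks genes that rose, blue those that fell and grey those that did not pass; dotted lines stand at 1.5-fold. Plxna4 lies furthest left at -1.99 and Plxnb1 furthest right at 1.15.

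The 3 semaphorins that passed the test against 1.5-fold in 3T3, Sema5a, Sema3a and Sema4g, all fell. Sema5a, a membrane semaphorin with thrombospondin repeats on chromosome 15 (32244810 to 32696341, plus strand), had 12.4 and 13.8 CPM in induced and 37.3 and 37.2 CPM in normal cells. Both induced libraries lay far below both normal ones, with a ratio of 2.85 (log2 fold change of -1.51, SE 0.09, adjusted p = 2.82e-19). Sema3a, the secreted repellent that signals through Nrp1 and class A plexins, had 45.1 and 49.2 CPM in induced and 93.8 and 92.4 CPM in normal cells. Its groups did not overlap either (log2 fold change -0.99, SE 0.06, adjusted p = 2.54e-19). Sema4g, a transmembrane class 4 member, had 9.72 and 10.02 CPM in induced and 17.5 and 17.9 CPM in normal cells, which amounts to a log2 fold change of -0.84 (SE 0.11, adjusted p = 8.0e-09). Smaller falls were those of Sema6c (8.36 and 8.15 CPM induced, 10.7 CPM in both normal libraries, log2 fold change -0.38) and Sema3c, which acts through both neuropilins (48.7 and 44.5 CPM induced, 53.2 and 55.8 CPM normal, log2 fold change -0.22). DESeq2 called neither of these, and the calls were also lost without normal library 2 (and, for Sema6c, normal library 1).

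Of the semaphorins, Sema6a and Sema4c rose. Sema6a, a transmembrane ligand of Plxna2 and Plxna4 on chromosome 18, had 6.07 and 7.57 CPM in induced and 4.82 and 3.68 CPM in normal cells (log2 fold change 0.68, SE 0.17, adjusted p = 0.00111). Sema4c, a ligand of Plxnb2, had 23.6 and 23.1 CPM in induced and 20.1 and 17.5 CPM in normal cells (log2 fold change 0.32, SE 0.09, adjusted p = 0.00412). In both genes every induced library lay above every normal one. DESeq2 called neither, and neither call held without normal library 2. Of 4 tested class 3 members, the remaining Sema3b and Sema3f did not pass. Sema3f, which prefers Nrp2, was the most abundant semaphorin in 3T3 and its groups overlapped, at 105 and 97.0 CPM in induced and 103 and 101 CPM in normal cells (adjusted p = 0.892). Sema4b, Sema4d, Sema5b, Sema6b, Sema6d and Sema7a did not pass either, with log2 fold changes from -0.48 (Sema7a) to 0.51 (Sema5b). Sema3d, Sema3e, Sema3g, Sema4a and Sema4f were too low to be tested, with 1 to 14 counts in any 3T3 library.

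Among the receptors of semaphorins, class A plexins parted ways. Plxna4, the receptor of class 6 semaphorins and, with Nrp1, of Sema3a, lies on the minus strand of chromosome 6 (32144268 to 32588192). It had 6.66 and 6.99 CPM in induced and 27.3 and 26.9 CPM in normal cells. This is 3.98-fold lower than normal (log2 fold change -1.99, SE 0.11, adjusted p = 1.93e-20), the deepest of the 60 genes in 3T3. Plxna2, which shares the ligand Sema6a (chromosome 1, 194618218 to 194816869, plus strand), had 45.1 and 41.6 CPM in induced and 97.2 and 105 CPM in normal cells. Every induced library was lower, by 2.33-fold in the fit (log2 fold change -1.22, SE 0.06, adjusted p = 3.32e-22). Plxna1, which is far more abundant, had 689 and 658 CPM in induced and 470.2 and 464 CPM in normal cells and so was 1.44-fold higher (log2 fold change 0.53, SE 0.03, adjusted p = 4.64e-18). Of its exon bases, 10.7% are shared with an antisense gene, and whether counting used strand is not given. Plxna3 did not pass, at 39.6 and 37.0 CPM in induced and 46.2 and 39.6 CPM in normal cells (log2 fold change -0.16, adjusted p = 0.0774). Summed per length, the class A plexins stood at 84.2 and 80.3 RPKM in induced and 65.4 and 64.3 RPKM in normal cells, since Plxna1 made up most of the total.

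Class B plexins, the receptors of several class 4 semaphorins, showed rises in 2 of 3 members. Plxnb1, the receptor of Sema4d, had 14.2 and 11.8 CPM in induced and 5.57 and 6.2 CPM in normal cells. The groups did not overlap, and the log2 fold change of 1.15 (SE 0.13, adjusted p = 6.0e-10) was the highest among the members. Plxnb2, a receptor of Sema4c, had 551 and 510.1 CPM in induced and 449.9 and 436 CPM in normal cells (log2 fold change 0.26, SE 0.04, adjusted p = 3.35e-08). Plxnd1, the receptor of Sema3e, was abundant and its groups overlapped, at 164 and 159 CPM in induced and 161 and 162 CPM in normal cells (log2 fold change 0.00, SE 0.04, adjusted p = 0.972). Plxnb3 and Plxnc1 stood near 1 CPM and did not pass. Of the neuropilins, Nrp1 fell to 77.7 and 71.4 CPM in induced against 99.4 and 102 CPM in normal cells (log2 fold change -0.43, SE 0.05, adjusted p = 2.63e-09). Nrp2, which was 589 and 585 CPM in induced and 618 and 619 CPM in normal cells, did not pass (log2 fold change -0.07, adjusted p = 0.0603, SE 0.03). It passed downward in limma-voom, with a minimum mean of 1 CPM, under the replicate block and without either induced library.

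**Figure D3:**
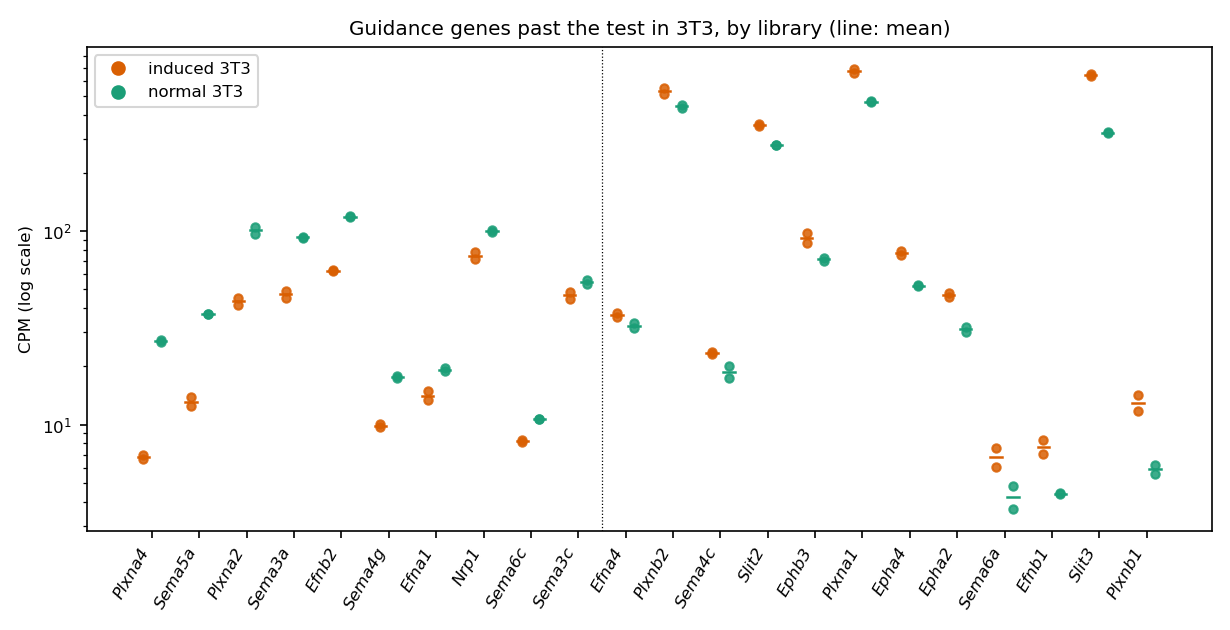
CPM in each library (vertical axis, log scale) of the 22 members that passed the test in 3T3, with induced libraries left of normal ones and short lines at the means. Members left of the dotted line fell and those right of it rose. The induced and normal libraries of each gene do not overlap, which also holds for some members that did not pass.

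Ephrins moved in opposite directions within each class. Efnb2, the B ephrin known from arterial endothelium and a partner of Ephb4, had 62.1 and 63.1 CPM in induced and 119.7 and 118 CPM in normal cells. It fell by 1.90-fold without overlap (log2 fold change -0.93, SE 0.05, adjusted p = 4.56e-20). Efnb1, another B ephrin, which lies on the X chromosome, had 7.01 and 8.29 CPM in induced and 4.38 and 4.42 CPM in normal cells, and rose (log2 fold change 0.79, SE 0.16, adjusted p = 5.97e-05). Efna1, a ligand of Epha2, had 14.8 and 13.4 CPM in induced and 19.0 and 19.5 CPM in normal cells, and fell (log2 fold change -0.44, SE 0.10, adjusted p = 0.000272). Efna4 had 37.8 and 36.0 CPM in induced and 33.5 and 31.4 CPM in normal cells (log2 fold change 0.19, SE 0.07, adjusted p = 0.0336). The call of Efna4 as higher was the least firm in 3T3, and 10.5% of its exon bases are shared with an antisense gene. DESeq2 did not call it, and neither did the unfiltered fit, the joint fit of both lines, or the fits that left out a normal library (1 or 2) or induced library 1. Efna2, Efna3, Efna5 and Efnb3 did not pass, with log2 fold changes from -0.20 to 0.05.

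Eph receptors that passed the test in 3T3 all lay higher in induced cells. Epha2, a receptor of A ephrins that fibroblasts and epithelia make, had 47.8 and 45.5 CPM in induced and 30.1 and 32.1 CPM in normal cells (log2 fold change 0.58, SE 0.07, adjusted p = 1.2e-09). Its promoter window is the only called one of 3T3 that holds CTTTGA. Epha4, which binds ephrins of both classes, had 79.2 and 75.3 CPM in induced and 52.5 and 51.9 CPM in normal cells (log2 fold change 0.57, SE 0.06, adjusted p = 1.13e-11). Ephb3 had 98.0 and 86.9 CPM in induced and 69.8 and 73.1 CPM in normal cells (log2 fold change 0.38, SE 0.05, adjusted p = 2.2e-07). In these 3 genes no induced library overlapped a normal one, and the calls held in every alternative but the test against 1.5-fold. Absence of overlap between so few libraries adds little to a call. Efna3, Ephb2, Ephb6, Nrp2, Plxnc1, Sema3b, Sema4d, Sema5b, Sema6b, Sema7a and Slit1, which did not pass in 3T3, showed no overlap either. The share of all genes without overlap was not determined. The other 9 tested Eph receptors did not pass, with log2 fold changes from -0.39 (Ephb1, at about 1 CPM) to 0.51 (Ephb6, which lacks kinase activity). Ephb4, the most abundant, had 129 and 121 CPM in induced and 122 and 116 CPM in normal cells (adjusted p = 0.2). Epha3 and Epha5 had 0 to 4 counts in each library and were not tested.

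Of the 3 Slit ligands, Slit3 and Slit2 rose, while Robo receptors were barely detected. Slit3 (chromosome 11, 35121224 to 35708507, plus strand) had 646 and 631 CPM in induced and 323 and 324 CPM in normal cells. The induced libraries lay well above the normal ones, at 1.98 times their level (log2 fold change 0.98, SE 0.03, adjusted p = 1.26e-27), and Slit3 was the most abundant member per length in induced cells. Slit2 had 351 and 359 CPM in induced and 279.6 and 279 CPM in normal cells (log2 fold change 0.35, SE 0.04, adjusted p = 2.8e-11). Slit1, at 3.95 and 3.39 CPM in induced and 4.82 and 4.71 CPM in normal cells, did not pass (adjusted p = 0.113). Robo1, the receptor with most counts, stood at 1.12 and 1.23 CPM in induced and 1.00 and 1.61 CPM in normal cells (adjusted p = 0.742). Robo2, Robo3 and Robo4 were not tested, with 0 to 7 counts in any 3T3 library.

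Partners and effectors of these families, listed with earlier results of these data known, moved in both directions. Of 71 such genes 60 were tested in 3T3, and 18 rose and 18 fell, where 18.5% of all tested genes rose and 18.3% fell. Of 12 genes of Slit and Robo signalling, 8 fell and 2 rose, and of 25 tested genes of semaphorin and plexin signalling, 10 rose and 4 fell. Of 13 tested genes of Eph and ephrin signalling, 4 rose and 5 fell, and of 10 of netrin and repulsive guidance, 2 rose and 1 fell. These counts are not matched for abundance: of all tested genes averaging 5 CPM or more, 25.0% rose and 23.7% fell. Mical2, a flavoenzyme that oxidises actin, had 158 and 160.2 CPM in induced and 90.9 and 92.8 CPM in normal cells. Met, the receptor of hepatocyte growth factor that can associate with class B plexins, fell to 100.01 and 108 CPM in induced against 214 and 224 CPM in normal cells (log2 fold change -1.07, SE 0.04). Vav3 (log2 fold change -1.11) and Ngef (-0.86), exchange factors downstream of Eph receptors, and Flrt3 (-0.96), a membrane partner of Robo1 and Unc5 proteins, also fell. The call of Ngef was lost in DESeq2, in the joint fit of both lines and without normal library 2 or induced library 2. Neurons make many of these genes, and a list of 6 neuronal markers summed to 28.3 and 27.9 CPM in induced and 65.2 and 65.8 CPM in normal 3T3. Most of this was Map2 (22.6 and 22.3 CPM induced, 59.9 and 60.7 CPM normal), which fell, while Tubb3 rose and the other 4 did not pass or were not tested, with Syt1 at 0.294 and 0 CPM in induced and 0.375 and 0.230 CPM in normal cells. The 6 endothelial markers summed to 8.72 and 8.07 CPM in induced and 8.63 and 6.89 CPM in normal cells. The part of these in the guidance genes was not tested.

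Loss of TCF-1 was examined in Scid.adh, where the factor is normally present. In this line 31 of the 60 genes were tested. Among them 7 rose (22.6%, against 15.6% of all 11941 tested genes) and 4 fell (12.9%, against 15.9%). With upper-quartile scaling 20.6% of all genes rose and 10.2% fell, and the members' counts were 8 and 4. In the joint fit of both lines 14 of 52 members rose and 4 fell, against 17.1% and 17.2% of all 15854 genes. That fit tests more genes, some kept only through their 3T3 counts, and estimates scatter over both lines together. The common scatter between libraries was 2.41% in 3T3 alone and 5.94% in Scid.adh alone. The part of each in the 14 rises was not tested. The rises and the falls lay at different abundance. All 4 that fell belonged to the 14 members averaging 5 CPM or more, and the other 10 of these did not pass. All 7 that rose belonged to the 17 members under 5 CPM, each of which had a log2 fold change above 0. Low genes as a whole were higher in the knockout libraries: of all 2941 tested genes under 5 CPM, 31.9% rose, 4.56% fell and 72.8% had a log2 fold change above 0. Above that level, 10.3% rose and 19.6% fell. The knockout libraries had counts in 20406 and 20463 genes against 18084 and 18041 with the empty vector, although their totals were smaller. Reads that counting assigned to no feature, which can also lie within genes, were 22.3% and 25.8% against 21.3% and 21.6%. The part of either, or of the general rise of low genes, in the rises of single members was not tested.

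**Figure D4:**
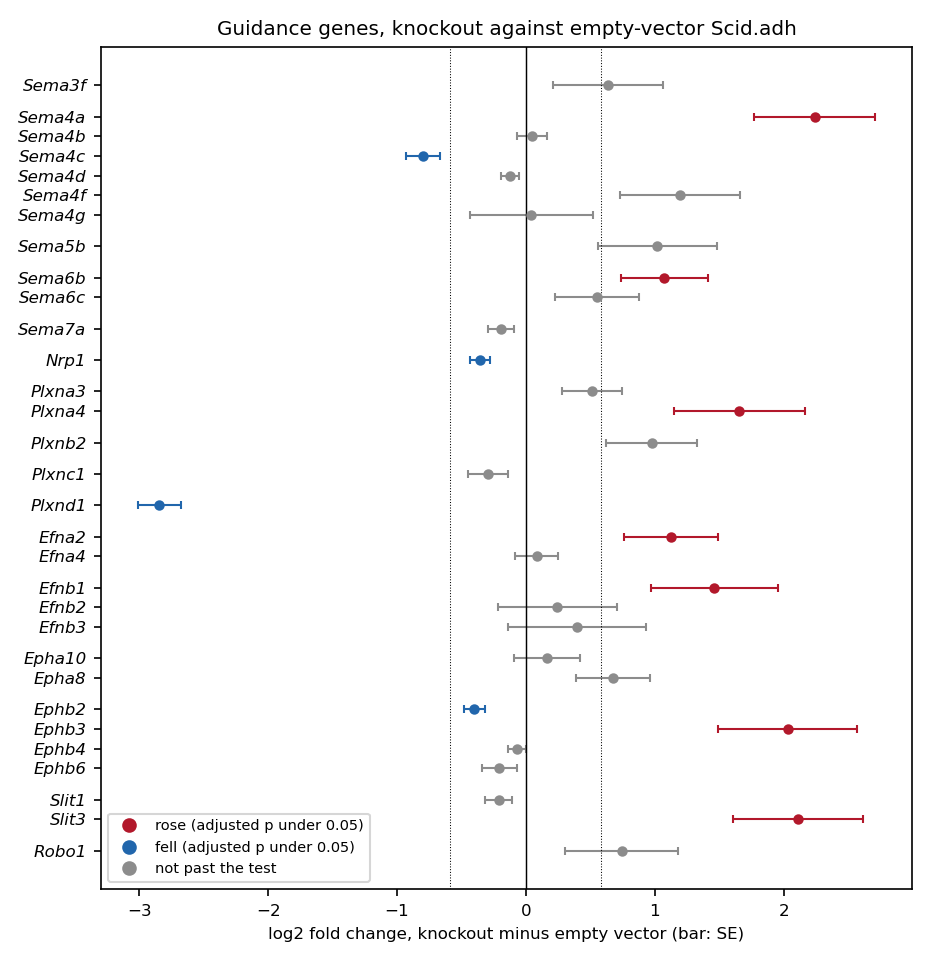
Log2 fold change (horizontal axis, knockout minus empty-vector Scid.adh; bars are SE) of the 31 tested members, ordered by family, with colours and dotted lines as in the plot for 3T3. Plxnd1 stands alone at -2.84 with a short bar, while the genes that rose have long bars and low counts.

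Plxnd1, the receptor of Sema3e that guides double-positive thymocytes in the mouse thymus, fell to a small remainder in the knockout. It lies on the minus strand of chromosome 6 (115954811 to 115995005) and had 4.50 and 5.34 CPM in knockout and 36.0 and 34.9 CPM in empty-vector cells. The groups are far apart: 82 counts over both knockout libraries against 684 over the others, which is 7.18-fold lower in the knockout (log2 fold change -2.84, SE 0.17, adjusted p = 1.42e-07). It passed in every alternative, among them the test against 1.5-fold, in which it was the 1 member that fell (3.23%, against 1.33% of all genes). Its ligand gene Sema3e had 0 to 1 count in any Scid.adh library. Sema4c had 18.0 and 19.9 CPM in knockout and 34.6 and 31.3 CPM in empty-vector cells (log2 fold change -0.80, SE 0.13, adjusted p = 0.000771). Of its exon bases, 7.27% are shared with an antisense gene. Its receptor gene Plxnb2 was low in this line, at 4.01 and 2.97 CPM in knockout and 1.81 and 1.71 CPM in empty-vector cells (adjusted p = 0.0501).

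The 2 other falls in Scid.adh were smaller. Ephb2, a receptor of B ephrins that thymocytes make, had 71.3 and 78.3 CPM in knockout and 102 and 95.3 CPM in empty-vector cells (log2 fold change -0.40, SE 0.08, adjusted p = 0.00324). Nrp1 had 107 and 121 CPM in knockout and 145 and 146 CPM in empty-vector cells (log2 fold change -0.35, SE 0.07, adjusted p = 0.00358). In both genes every knockout library was the lower one, and DESeq2 called the same 4 falls of this line (12.9%, against 9.04% of all genes). The other abundant members did not pass. Sema4d, a semaphorin of T cells, had 139 and 146 CPM in knockout and 149.8 and 160.1 CPM in empty-vector cells (log2 fold change -0.12, adjusted p = 0.205). Ephb4 had 95.9 and 97.2 CPM in knockout and 102 and 101 CPM in empty-vector cells (adjusted p = 0.512). Slit1, the Slit of this line, had 44.99 and 50.7 CPM in knockout and 52.4 and 58.5 CPM in empty-vector cells (adjusted p = 0.136), and Sema7a, anchored by a lipid and a ligand of Plxnc1, 40.5 and 39.0 CPM against 46.2 and 44.7 CPM (adjusted p = 0.159). Plxnc1, Ephb6, Sema4b, Efna4, Plxna3 and Epha10 complete the 14 and had log2 fold changes from -0.29 to 0.51.

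The rises in Scid.adh rest on few counts. Sema4a, a semaphorin that dendritic cells and activated T cells make, had 34 and 36 counts (4.13 and 4.27 CPM) in knockout and 14 and 3 counts (1.41 and 0.320 CPM) in empty-vector libraries. It rose by 4.73-fold (log2 fold change 2.24, SE 0.47, adjusted p = 0.00341) and was the 1 rise that DESeq2 also called (3.23% of tested members, against 7.37% of all genes). Slit3 had 23 and 15 counts in knockout and 7 and 3 in empty-vector libraries (log2 fold change 2.11, SE 0.50, adjusted p = 0.00687). Sema4a and Slit3 also passed the test against 1.5-fold (6.45% of tested members, against 4.73% of all genes), but Slit3 was lost in DESeq2 and without empty-vector library 2. The other 5 were Ephb3 (log2 fold change 2.03), Plxna4 (1.66), Efnb1 (1.46), Efna2 (1.13) and Sema6b (1.07), with adjusted p from 0.0128 to 0.0389. Plxna4 had 10 and 15 counts (1.22 and 1.78 CPM) in knockout and 4 and 5 counts (0.403 and 0.534 CPM) in empty-vector libraries. Ephb3 had 1.58 and 1.90 CPM in knockout and 0.201 and 0.641 CPM in empty-vector cells, and Efnb1 had 2.07 and 1.42 CPM in knockout and 0.403 and 0.854 CPM in empty-vector cells. The knockout libraries were the higher ones in each of the 5, without overlap, as also in Epha10 and Plxnb2, which did not pass. Sema4d, Ephb4, Slit1 and Sema7a, which did not pass either, showed no overlap with the knockout libraries lower. Efna2 had 3.53 and 2.85 CPM in knockout and 1.31 and 1.60 CPM in empty-vector cells. Sema6b had 3.77 and 3.68 CPM in knockout and 1.81 and 1.71 CPM in empty-vector cells. All 5 were lost in DESeq2 and in the test against 1.5-fold, and each was lost without at least 1 library, empty-vector library 1 in every case. Without empty-vector library 1, or without empty-vector library 2, 2 members rose, against 4 without knockout library 1 and 5 without knockout library 2. Among fibroblast markers, Col1a1 (1.82 and 1.66 CPM in knockout, 0.403 and 0.320 CPM in empty-vector cells), Col1a2 (2.43 and 2.25 against 0.806 and 0.534 CPM) and Pdgfra (1.82 and 1.78 against 0.302 and 0.427 CPM) also rose, while Pdgfrb and Thy1 fell and Fn1, Dcn and Lum were too low to be tested. Their part in the rises of guidance genes was not tested.

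The remaining 29 members were too low for the test in Scid.adh. Of these, 28 had a higher mean CPM in knockout than in empty-vector libraries, as had 77.2% of all 11669 untested genes with a count. Plxna2, for example, had 12 counts in knockout against 6 in empty-vector libraries, a ratio of 2.32 at equal depth (95% counting interval 0.805 to 7.52). Sema3c had 18 counts against 2, a ratio of 10.4 (95% counting interval 2.5 to 92.7). Epha6 had 5 counts over the knockout libraries and 0 over the others. With 3 counts over the empty-vector group taken as the floor, the ratio was 1.93, which leaves out the counting error of the 5. The 95% counting interval of the ratio without that floor starts at 1.06. These intervals cover counting error only.

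Partners and effectors from the same list of 71 were tested for 44 genes in Scid.adh, and 18 rose and 7 fell, with a median log2 fold change of 0.41. Of all genes tested in this line 15.6% rose and 15.9% fell, with a median of -0.0039, and 31.9% of those under 5 CPM rose. Chn1, a Rac-inactivating protein that acts downstream of Epha4, stood out by its counts among the named ones, at 25.2 and 20.3 CPM in knockout and 2.42 and 2.24 CPM in empty-vector cells (log2 fold change 3.28, SE 0.23, adjusted p = 6.64e-07). The other named genes were below 5 CPM in every library: Crmp1, a cytosolic mediator of semaphorin signals (log2 fold change 3.06), the netrins Ntn1 (2.90) and Ntn4 (2.64), the actin regulator Enah (2.67) and Flt1, a VEGF receptor (2.22). Of these, Flt1 was lost in DESeq2 and without empty-vector library 1. Epha4 itself had 7 counts in knockout and 2 in empty-vector libraries. Neuronal markers summed to 5.47 and 5.58 CPM in knockout and 3.83 and 1.82 CPM in empty-vector cells, and endothelial markers to 77.9 and 79.8 CPM and 77.0 and 78.2 CPM, nearly all of it Pecam1, which lymphocytes can also make. Their part in these rises was not tested.

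Whether the change on gain of TCF-1 in 3T3 differed from the change on its loss in Scid.adh was tested in a fit of all 8 libraries. The measure was the change in 3T3 minus the change in Scid.adh. Gain and loss are opposite treatments, so a gene that moved in opposite directions shows a difference, and a gene that moved equally in both shows none. Of 52 members in that fit, 3 had a positive difference (5.77%, against 14.6% of 15854 genes) and 15 a negative one (28.8%, against 16.1%). In DESeq2 they were 3 (5.77%, against 12.6%) and 8 (15.4%, against 9.78%), and against 1.5-fold 2 (3.85%, against 2.28%) and 6 (11.5%, against 5.61%). The 3 positive ones were Plxnd1 (2.85, SE 0.15, adjusted p = 1.73e-16), Sema4c (1.11, SE 0.16, adjusted p = 1.36e-06) and Ephb2 (0.46, SE 0.10, adjusted p = 0.000395). All 3 fell in the knockout. Sema4c rose in induced 3T3, while Plxnd1 and Ephb2 did not pass there. Among the negative differences, 9 of 15 members had under 10 counts over the empty-vector group. Of the 52 members, 29 were tested in each line alone, and these include 6 of the 15 negative ones. The shares over all genes are not matched for abundance, and low genes as a whole were higher in the knockout. The part of that general rise in the excess of negative differences was not tested, so the excess is not read as a result about the members. The largest in size among members tested in both lines was that of Plxna4 (-3.65, SE 0.53, adjusted p = 2.17e-06), which fell in induced 3T3 and rose in the knockout, where the empty-vector group had 9 counts. Nrp1 fell in both comparisons, with log2 fold changes of -0.43 in 3T3 and -0.35 in Scid.adh, and its difference did not pass (-0.07, SE 0.09, adjusted p = 0.6). Slit3 (0.98 in 3T3 and 2.11 in Scid.adh), Efnb1 (0.79 and 1.46) and Ephb3 (0.38 and 2.03) rose in both, on few counts in Scid.adh. The differences of Slit3 (-1.13, SE 0.42, adjusted p = 0.0521) and Efnb1 (-0.68, SE 0.53, adjusted p = 0.365) did not pass, while that of Ephb3 did (-1.67).

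**Figure D5:**
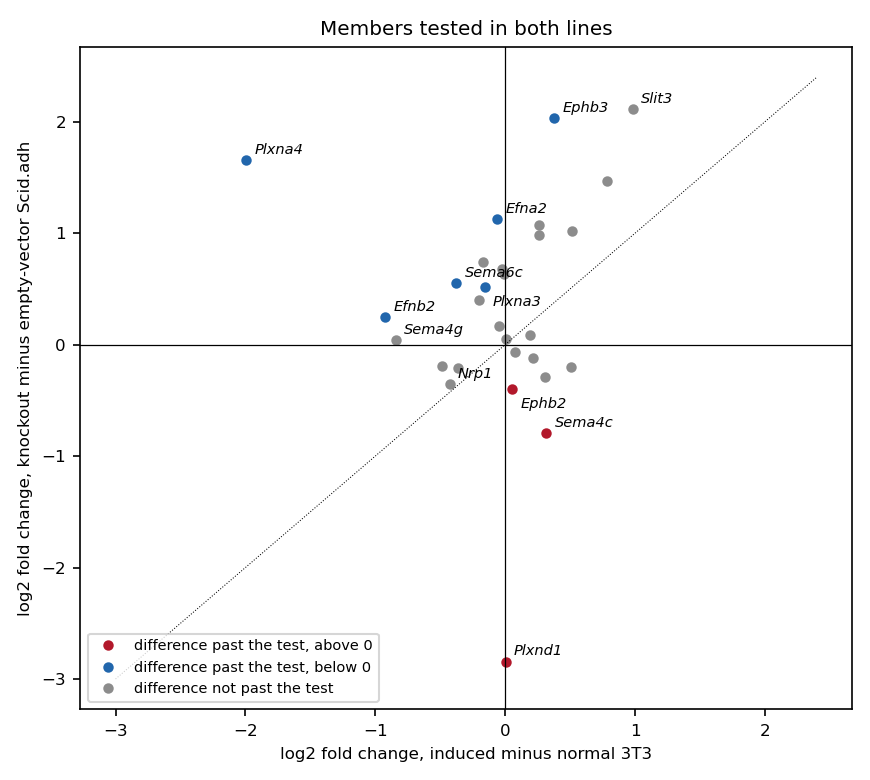
Log2 fold change in 3T3 (horizontal axis, induced minus normal) against that in Scid.adh (vertical axis, knockout minus empty vector) for the 29 members tested in both lines and in the fit of all libraries. Red and blue mark members whose difference between the lines passed the test, above and below 0, and the dotted line is where both changes are equal. Plxnd1 lies at 0.00 and -2.84, and Plxna4 at -1.99 and 1.66.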

How the data were processed

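Each library has its own table of raw read counts per Ensembl gene, deposited by the authors; reads were paired. Per the labels' protocols, total RNA was made into libraries with a stranded low-input kit. The submitters' processing notes list STAR 2.5.0a, HTSeq 0.6.1 and GRCm38 (mm10), and 3T3 alignment files had been merged before counting, per the file headers. Not given in the sources used here are the strand setting, the annotation release and the treatment of duplicates. Tables list 53465 genes for 3T3 and 31053 for Scid.adh. Rows of unassigned reads (in Scid.adh tables) entered no test or library size, and 2.20% to 2.44% of reads there were ambiguous.

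For each line, genes kept by filterByExpr were normalised with TMM and compared with the quasi-likelihood F-test of edgeR 4.0.16 in its robust form (R 4.3.3). P-values were adjusted by Benjamini-Hochberg over every tested gene, a call needs an adjusted p under 0.05, and SE is the log2 fold change divided by the root of F. Symbols, positions and exon lengths are from GENCODE M21. Alternatives were DESeq2 1.42.0, its size factors, upper-quartile factors, limma-voom (limma 3.58.1), no filter, at least 1 CPM on average, a replicate block, omission of each library, a joint fit and a test against 1.5-fold. The steps were tested on simulated data. Libraries of a group differed by more than sampling noise, most of all in the knockout. Chi-square per degree of freedom was 1.89 in induced and 1.17 in normal 3T3, and 6.84 in knockout and 1.94 in empty-vector Scid.adh. The number and depth of the libraries limit precision. Per-library values are given for Plxna2, Plxna4 and, in each line, up to 10 rises and 10 falls of at least 1 CPM, with up to 6 called partner genes; others were named with values as needed, and 1 partner gene is not reported here. The members, lists and rules were chosen with earlier results of these data known. Drawing used matplotlib 3.10.9 under Python 3.11.15, and tables pandas 2.3.3 and SciPy 1.17.1.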

Additional observations from a re-analysis of the deposited data

Results flagged for a closer look

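In 18 members the change on induction in 3T3 differed from the change on knockout in Scid.adh, by a test of the difference itself at an adjusted p under 0.05. The log2 difference, 3T3 minus Scid.adh, was 2.85 for Plxnd1, 1.11 for Sema4c and 0.46 for Ephb2. It was -3.65 for Plxna4, -1.67 for Ephb3, -1.19 for Efna2, -1.17 for Efnb2, -0.93 for Sema6c and -0.67 for Plxna3, which were also tested in each line alone. For members tested in 1 line alone it was -3.48 for Sema3c, -3.13 for Sema5a, -3.11 for Epha1, -3.09 for Efna5, -2.82 for Sema4a, -2.62 for Sema4f, -2.40 for Plxna2, -2.07 for Efna3 and -4.82 for Epha6. Of these, Sema4a and Sema4f were too low for the test in 3T3 alone, and the rest in Scid.adh alone. They entered the joint fit through the line with more counts, so these differences rest on few counts in the other line. In Epha6, Efna5, Epha1 and Sema3c a group had at most 3 counts, so that the fitted size depends on the prior count. Plxnd1, Sema4c, Plxna4 and Sema3c passed under every alternative, and Ephb2 under every one but the test against 1.5-fold. Sema3c did so with 2 counts and Plxna4 with 9 counts over the empty-vector group. The other 13 lost their call without at least 1 library: Efnb2, Ephb3, Plxna2, Efna3, Sema4f, Efna2, Sema6c, Efna5 and Epha6 without empty-vector library 1, Sema5a without knockout library 1, Sema4a without normal library 2, and Epha1 and Plxna3 without empty-vector library 2. Sema4f, Efna2, Efna3, Plxna3, Sema6c and Efna5 also lost their call in DESeq2, which gave no adjusted p for Epha6. Limma-voom did not call Efna2 or Plxna3. Efna2 and Epha6 were lost without a filter and under the replicate block too, and Efna2 also with DESeq2 size factors. Antisense genes share 14.1% of the exon bases of Efna3 and 6.01% of those of Epha1.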

How the results depend on the processing

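Of the 22 members called in 3T3, 17 kept their call in every alternative but the test against 1.5-fold. Sema6a, Sema4c, Efna4, Sema3c and Sema6c did not. Of the 11 called in Scid.adh, Nrp1, Sema4c, Sema4a, Ephb2 and Plxnd1 kept theirs. No called member changed sign. Against 1.5-fold, 2 members rose and 6 fell in 3T3, 2 rose and 1 fell in Scid.adh, 8 differed between lines, and 917 and 724 of all genes passed in 3T3 and Scid.adh. DESeq2 called 1 rise in Scid.adh, 11 differences between lines, and 4012 and 1960 of all genes. The joint fit of 8 libraries gave 14 rises in Scid.adh, among 52 members tested, where 17.1% of all 15854 genes rose. With 1 library left out, rises and falls in 3T3 ranged over 9 to 13 and 9 to 12, rises and falls in Scid.adh over 2 to 5 and 4 to 5, differences over 9 (without empty-vector library 1; 11 without knockout library 1) to 18, and calls among all genes over 4753 to 6809 in 3T3 and 2221 to 4210 in Scid.adh. The lone library left in a group is then assumed to vary like the others. Same-numbered libraries hardly shared deviations from their group means over all tested genes (correlation 0.0124 in 3T3 and 0.00147 in Scid.adh). Counting noise in low genes can hide shared deviations, so these values do not settle whether libraries were paired. Under the replicate block 12 members rose and 12 fell in 3T3, 9 rose and 4 fell in Scid.adh, 17 differed between lines, and 7210 and 4038 of all genes passed. Of members not called, Nrp2, Ephb4 (without induced library 2), Plxna3 (block, without normal library 2 or induced library 1) and Efna5 (without induced library 1) passed in some alternative in 3T3, and Plxnb2, Sema4f (block) and Slit1 (without knockout library 2) in Scid.adh. In Scid.adh 29 of 60 members had too few counts for the test at this depth. The cause of the changes between settings was not tested.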

Other observations

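Some members lie near others of their family. Efna1, Efna3 and Efna4 lie within 1 stretch of chromosome 3 (89271733 to 89338028 on GRCm38), and in 3T3 their log2 fold changes were -0.44, -0.06 and 0.19, of which the first and the last passed the test. On chromosome 5, Sema3d, Sema3a, Sema3e and Sema3c follow each other between 12383385 and 17730268. Sema3a (-0.99) and Sema3c (-0.22) fell in 3T3, and Sema3d and Sema3e were too low to be tested. Sema3b and Sema3f, on chromosome 9, did not pass in 3T3 (-0.14 and -0.01).

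Antisense transcripts annotated at Plxna4 had few counts. Plxna4os2 had 0 counts in induced and 9 in normal 3T3, and Plxna4os3 had 3 in induced and 11 in normal 3T3. Plxna4os1 had 1 count in induced and 0 in normal 3T3. Of Plxna4's own exon bases, 0.780% are shared with Plxna4os3.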
